A study of Mus musculus with 16 samples.

Results

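Of the 6 lungs measured in this study of NM1 knockout mice, 3 held high levels of fat cell transcripts and 3 did not, and the differences between these sets are described here. The 2 sets were chosen by these measured values themselves: the 6 lungs were ranked by the mean log2 signal of 3 fat genes, Adipoq, Ucp1 and Cidea, with 1 probe set per gene. The 3 highest, from KO mice 1586 and 1603 and WT mouse 1592, are called the lungs with fat transcripts. The 3 lowest, from WT mice 1624 and 1593 and KO mouse 1602, are called the lungs without them. These 6 lungs are 6 of the 16 arrays of the series. NM1, nuclear myosin 1, is an isoform of the gene Myo1c. The series compared KO with WT mice in lungs and heart, with 3 mice per genotype and both organs from the same 6 mice, and in skin fibroblasts, with 2 samples per genotype from other mouse numbers. The labels give no strain, age, sex or dissection, nor which part of the gene was removed. Signals are log2 values on Affymetrix arrays, 1 per probe set, so a difference of 1 is a doubling of signal.

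White fat cells store triglyceride and secrete hormones such as adiponectin, while brown fat cells burn fatty acids to make heat through an uncoupling protein in mitochondria rich in respiratory enzymes. The lung itself is built of thin gas-exchanging type I cells, surfactant-making type II cells, a dense capillary bed and conducting airways lined by secretory and ciliated cells. Brown fat, the thymus, lymph nodes, the large airways, the heart's atria and the muscle sleeves of the pulmonary veins all lie close to the lungs in a mouse chest.

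The rule used the values of these lungs, so every difference between the 2 sets of lungs is given as a description with no test. A difference is the mean of the lungs with fat transcripts minus the mean of the lungs without. Lungs arrays correlated with each other at 0.974 to 0.993 over all probe sets, with a lowest value of 0.983 among the lungs with fat transcripts and 0.990 among the lungs without. The highest value across the 2 sets was 0.988, above the lowest among the lungs with fat transcripts. Among hearts, that of KO mouse 1602 was set apart by its upper quartile, 5.63 against 6.17 to 6.31 in the other 5. Averaged over 4 probe sets, Myo1c had 6.31, 6.55 and 7.09 in KO lungs (1586, 1603, 1602), against 7.55, 8.10 and 8.35 in WT lungs (1592, 1624, 1593). KO lungs lay below WT lungs, and within each genotype the lungs with fat transcripts lay below those without.

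In bulk tissue, fewer cells of a type and less RNA per cell cannot be told apart, which holds for every value below. The rule mean was 10.11, 9.27 and 6.85 in the lungs with fat transcripts, from mice 1586, 1603 and 1592, against 3.67, 3.47 and 3.05 in the lungs without, from mice 1624, 1593 and 1602. The third and the fourth lungs thus stood at 6.85 and 3.67, on either side of the division. All values below keep this order of mice. Levels are read against 3.79, the median of all values in the table, above which a lungs mean was kept.

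Promoter sequence is shown for the genes that lead the fat, atrial muscle and airway patterns and for Ucp1, the brown fat gene that varied most among the lungs with fat transcripts. Each is the 250 bases before the first base of the gene, from RefSeq on GRCm38.p6, plus strand. Capitals mark matches to TATAAA (the TATA box), AGGTCA (an element bound by nuclear receptors) or AGATAA (the motif of GATA factors), searched on both strands, and no match overlapped another. Adipoq lies at chr16:23146286-23146535, Ucp1 at chr8:83290098-83290347, Nppa at chr4:148000472-148000721 and Bpifa1 at chr2:154142630-154142879.
Adipoq: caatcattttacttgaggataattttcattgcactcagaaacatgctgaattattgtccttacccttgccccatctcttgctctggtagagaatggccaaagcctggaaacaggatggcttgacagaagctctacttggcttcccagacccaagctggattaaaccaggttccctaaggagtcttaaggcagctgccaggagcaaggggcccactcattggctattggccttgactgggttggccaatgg
Ucp1: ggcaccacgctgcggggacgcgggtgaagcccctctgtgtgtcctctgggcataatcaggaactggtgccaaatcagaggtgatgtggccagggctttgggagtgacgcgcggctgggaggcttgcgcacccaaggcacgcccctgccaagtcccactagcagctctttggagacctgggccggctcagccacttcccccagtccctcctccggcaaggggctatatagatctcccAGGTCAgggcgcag
Nppa: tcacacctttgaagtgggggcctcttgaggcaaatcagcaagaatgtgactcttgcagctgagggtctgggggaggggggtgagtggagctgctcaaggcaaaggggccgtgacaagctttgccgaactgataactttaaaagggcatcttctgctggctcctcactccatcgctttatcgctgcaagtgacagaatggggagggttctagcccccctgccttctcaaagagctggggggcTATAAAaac
Bpifa1: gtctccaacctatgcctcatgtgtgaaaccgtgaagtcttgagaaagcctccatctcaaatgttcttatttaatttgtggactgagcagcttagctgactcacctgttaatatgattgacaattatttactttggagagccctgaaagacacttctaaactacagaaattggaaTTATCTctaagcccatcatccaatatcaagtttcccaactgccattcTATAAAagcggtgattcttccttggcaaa
The Adipoq window held none of the 3 motifs. Ucp1 held AGGTCA with its first base 14 bases before the start, and Nppa held TATAAA at 9 bases. Bpifa1 held TATAAA at 29 bases and, on the minus strand, AGATAA at 76 bases, printed as its complement. Of 27025 promoters of the same length, 13.0% held TATAAA, 13.8% AGGTCA and 10.3% AGATAA. These matches describe the letters only.

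Adipoq, which encodes the fat cell hormone adiponectin, had 10.80, 10.53 and 9.83 in the lungs with fat transcripts, against 3.99, 3.45 and 2.73 in the lungs without, a difference of 7.00. The means were 10.39 ± 0.50 and 3.39 ± 0.63 (SD, n = 3 each). The sets did not overlap, and of the lungs without fat transcripts WT mouse 1624 was just above 3.79 and the other 2 below it. Cidea, a lipid droplet protein, had 10.09, 9.26 and 6.83, against 4.16, 4.19 and 3.83, a difference of 4.66. Ucp1, the uncoupling protein of brown fat, had 9.43, 8.02 and 3.87, against 2.86, 2.77 and 2.59, a difference of 4.37. In WT mouse 1592 Ucp1 was thus barely above 3.79, although Adipoq was high there.

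Car3, carbonic anhydrase of fat and muscle, was not used to rank the lungs. It had 12.91, 12.57 and 12.25 in the lungs with fat transcripts, against 7.45, 7.30 and 3.21 in the lungs without, a difference of 6.59. By this marker the lungs of WT mice 1624 and 1593 were not free of signal, and only KO mouse 1602 was below 3.79. Fabp4, a fatty acid carrier of fat cells that capillary cells also make, had 12.77, 12.41 and 11.97, against a mean of 7.93 ± 0.07 in the lungs without (SD, n = 3), a difference of 4.45. By the line of 3.79, Ucp1 was below it in all 3 lungs called without fat transcripts, Adipoq in 2 of them and Cidea in none, with 3.83 to 4.19. The name "without fat transcripts" therefore means low levels of these 3 genes, and does not hold for every fat gene.

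**Figure D1:**
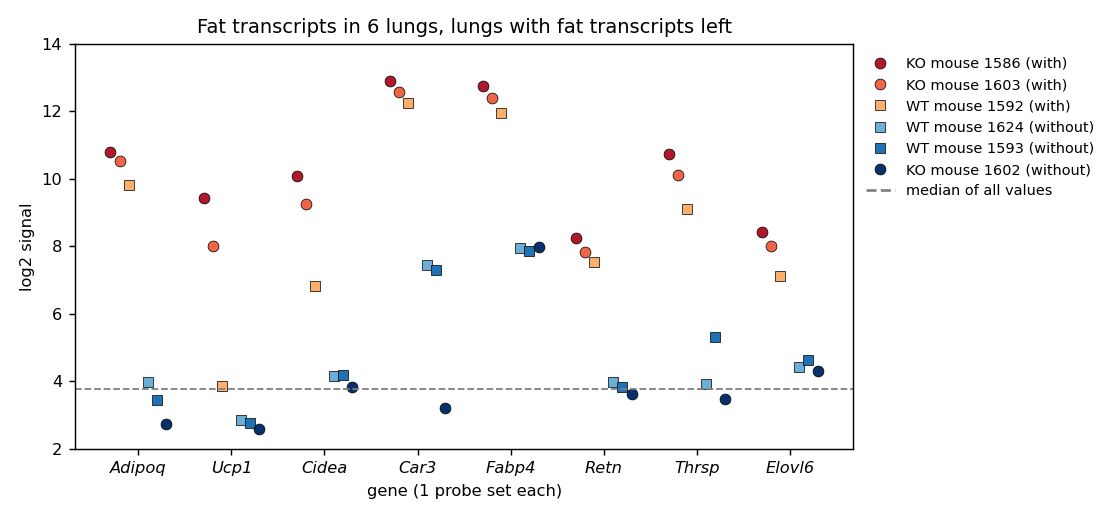
Log2 signal (y axis) of 8 fat and lipid genes (x axis) in 6 lungs, 1 point per lungs, circles for KO and squares for WT, with the lungs with fat transcripts on the left of each gene and the median of all values dashed. Adipoq lies between 9.83 and 10.80 in the lungs with fat transcripts, while Ucp1 falls to 3.87 in WT mouse 1592.

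Over all probe sets with a lungs mean above 3.79, 2333 of 23213 had all 3 values higher in the lungs with fat transcripts (10.1%) and 4143 all 3 lower (17.8%). With a difference of at least 1 as well, 303 were higher (1.31%) and 125 lower (0.538%). By gene, 1 probe set each, 197 were higher and 36 lower, and regardless of size 1076 of 10726 genes did not overlap and were higher (10%) and 1967 lower (18.3%). The median difference was -0.05 over probe sets. Just inside the limit of 1 stood Ttll3 at 1.001, and just outside it Bank1 at 0.996 and Ppp1r3b at 0.999.

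Of 25 general adipocyte genes, 21 were measured and 16 kept by the filter. Of these, 13 had all values higher in the lungs with fat transcripts and 1 lower, with a median difference of 1.32 over the 21, against -0.07 over all kept genes. The 13 include Adipoq, which the rule used. They also include genes that passed the filter only through the lungs with fat transcripts. In the lungs without, Adipoq had a mean of 3.39, Mrap 3.40, Slc2a4 3.77 and Lgals12 3.40. Every list median given here is over all measured members, kept or not. Besides Adipoq, Car3 and Fabp4, the hormone Retn (resistin) had 8.26, 7.83 and 7.55, against 3.98, 3.82 and 3.63. Named after their values were seen, the droplet coat protein Plin4 differed by 3.06 and the hormone-sensitive lipase Lipe by 1.95. Some fat genes differed little. Pparg, the master regulator of fat cells, had 6.46, 6.88 and 6.32, against 6.34, 6.17 and 6.41, and Cd36, a fatty acid transporter, differed by -0.25. The hormone gene Lep (leptin) stayed out of the count because its lungs mean was below 3.79.

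Of 28 brown fat genes, 23 were measured and 16 kept, of which 12 were higher and none lower, with a median difference of 1.20 over all 23. The 12 include Ucp1 and Cidea, which the rule used. Ucp1 passed the filter only through the lungs with fat transcripts. Cox8b, a subunit of cytochrome oxidase, had 11.02, 10.41 and 8.90, against 6.07, 6.50 and 5.14. Cox7a1, another subunit, had 9.17, 9.01 and 8.14, against 5.88, 6.07 and 4.47. The brown fat regulator Prdm16 differed by only 0.03, and the deiodinase Dio2 and the elongase Elovl3 were not kept. Several of these genes are also strong in heart: all 6 hearts had 12.80 or more for Cox8b, 12.45 or more for Cox7a1 and 8.58 or more for Cidea.

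Genes that make fat were higher too. Of 17 measured lipid synthesis genes, 13 were higher and 1 lower (Elovl5, a fatty acid elongase), with a median difference of 0.91. Mlxipl, among the 13, had a mean of 3.54 in the lungs without fat transcripts, so only the other set took it past the filter. Thrsp, a promoter of lipogenesis, had 10.75, 10.12 and 9.11, against 3.92, 5.31 and 3.49. The elongase Elovl6 had 8.43, 8.02 and 7.11, against 4.44, 4.63 and 4.31, and Dgat2, which makes triglyceride, differed by 3.20. The desaturase Scd1, abundant in all 6 lungs, differed by 0.67, and fatty acid synthase (Fasn) by 1.37.

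Genes that burn fat and run the mitochondrion shifted less and more evenly. Of 16 fatty acid oxidation genes, 14 were higher and 1 lower, with a median of 0.69. Of 19 citric acid cycle genes, 16 were higher and none lower, with a median of 0.55. Of 47 respiratory chain genes, 40 were higher and none lower, with a median of 0.38. Acadm, the dehydrogenase of medium-chain fatty acids, had 10.86, 10.61 and 10.48, against 9.52, 9.63 and 9.59. The 23 cytosolic ribosomal protein genes did not share this, with 1 higher, none lower and a median of -0.03.

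Enzymes with tissue forms split by form. Cox7a1 differed by 3.30 while its widespread counterpart Cox7a2 had 11.75, 11.73 and 11.73, against 11.36, 11.40 and 11.49, a difference of 0.32. Cox8b differed by 4.20 and Cox8a by 0.32. Cox6a2 had 7.62, 8.64 and 8.48, against 6.82, 6.71 and 6.09, a difference of 1.71, and Cox6a1 differed by 0.33. Cpt1b, the muscle and brown fat carnitine transferase, differed by 2.42, while the liver form Cpt1a differed by -0.55. Fabp4 differed by 4.45 and Fabp5, the epidermal carrier, by 0.16. The calcium pump Atp2a2 of heart and slow muscle differed by 1.81 and Atp2a3 by -0.28. Other probe sets gave less for Atp2a2 (0.26 and 0.65) and -0.61 for Fabp5, so these values hold for 1 probe set per gene. Slc25a4, the adenine nucleotide carrier of heart and muscle, differed by 0.41 and the widespread Slc25a5 by -0.13. Ucp3, the muscle uncoupling protein, differed by 0.01, and Cideb, a relative of Cidea, was not kept.

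**Figure D2:**
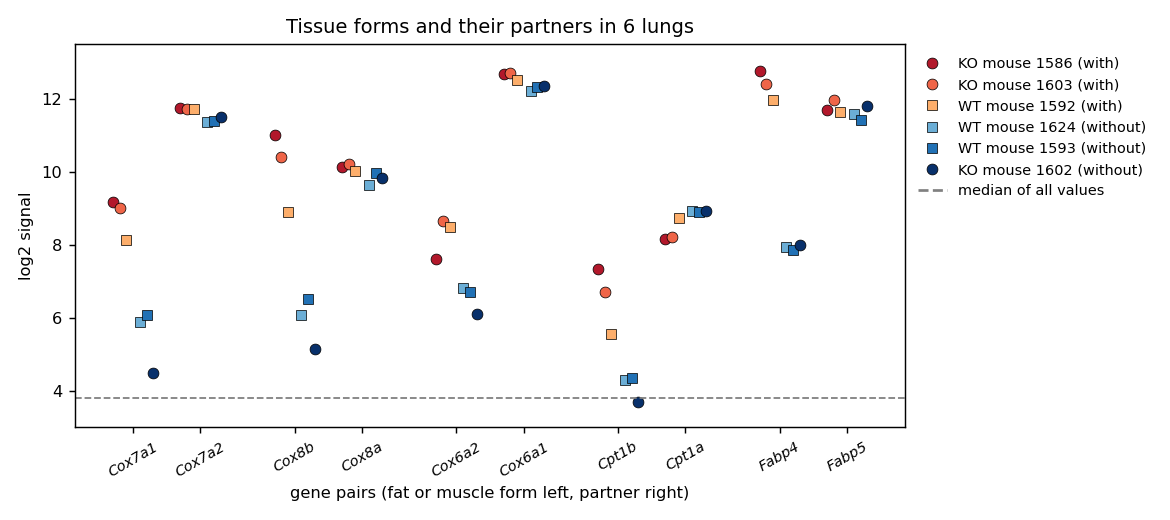
Log2 signal (y axis) of 5 gene pairs (x axis), with the form of fat or muscle left and its partner right, 1 point per lungs. Cox8b differs by 4.20 between the sets and Cox8a by 0.32, and Fabp4 by 4.45 and Fabp5 by 0.16.

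Heart muscle genes were higher in the same lungs. Of 19 measured cardiac muscle genes, 18 were kept and 17 were higher, with a median difference of 2.25. Tnni3, cardiac troponin I, had 9.39, 10.20 and 9.82, against 7.88, 7.67 and 4.80. Pln (phospholamban) had 7.89, 8.53 and 8.22, against 6.15, 5.73 and 3.08. Unlike the fat genes, 14 of these 17 were highest in KO mouse 1603, and all 17 were lowest in KO mouse 1602. Nppa, the atrial natriuretic peptide, had 8.93, 10.66 and 9.99, against 4.37, 3.22 and 2.94, a difference of 6.35. The atrial light chain Myl7 had 11.37, 12.04 and 11.68, against 10.15, 9.84 and 8.02, so that it was well above 3.79 in all 6 lungs. Of 8 measured atrial genes 4 were kept and 3 were higher, with a median of 0.45 over all 8. Nppa, 1 of the 3, passed the filter only through the lungs with fat transcripts (mean 3.51 in the lungs without). Myl2, the light chain of the ventricle, had 4.12, 4.14 and 3.92, against 3.71, 4.14 and 3.19, and overlapped between the sets. Only 2 of 16 measured skeletal muscle genes were kept, Ckm and Acta1, both of which heart also makes.

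A set of airway genes formed the third group. Bpifa1, a secreted defence protein of the upper airways, had the largest difference of the 197 higher genes, with 13.41, 13.79 and 13.85, against 8.91, 6.24 and 3.54, a difference of 7.46. Bpifb1, a relative, had 10.47, 11.22 and 12.27, against 6.61, 4.20 and 3.00. The secretoglobin Scgb3a1 had 12.96, 13.37 and 13.78, against 10.49, 8.07 and 4.39. The mucin Muc5b differed by 3.89. In contrast, Scgb1a1, the main product of club cells in small airways, had 14.21, 14.20 and 14.12, against 14.21, 14.12 and 14.18, and Cyp2f2 differed by 0.01. The Scgb1a1 signals are the highest given here, and whether so high a signal could still show a difference was not tested. Of 14 airway genes, 6 were higher and none lower, with a median of 0.74, which was 0.45 without WT mouse 1593 and 0.47 without WT mouse 1592. The ciliated cell genes Foxj1 and Rsph1 overlapped between the sets. Cdhr3, also of ciliated cells, did not, with 8.07, 8.41 and 9.05, against 7.77, 6.68 and 7.67. Some cilium genes outside the list were among the 197 higher genes, such as Cfap65 (1.40), Ccdc39 (1.20), Cfap43 (1.12) and Drc1 (1.08). Within KO lungs they differed by 0.62, 0.14, 0.58 and 1.06, and within WT lungs by 1.92, 1.97, 1.80 and 1.41. Ccdc39 had 7.25, 7.26 and 7.74, against 6.47, 5.06 and 7.11. Outside this list Reg3g, an antimicrobial lectin, had 9.33, 10.70 and 11.21, against 5.14, 3.55 and 2.82, and the trefoil peptide Tff2 had 7.72, 8.70 and 9.87, against 5.85, 4.02 and 3.20. Ltf (lactoferrin), which both glands and neutrophils make, had 8.52, 11.33 and 11.59, against 5.42, 4.55 and 4.32. Cyp2a5, a cytochrome P450, differed by 4.56, and Tmem45b, in the order of the fat genes, had 8.45, 7.03 and 6.13, against 2.65, 2.83 and 2.55. Krt15, a keratin of basal cells, had 3.68, 6.05 and 6.22, against 3.10, 3.21 and 3.00, and Chad, a cartilage protein, had 7.09, 7.94 and 8.90, against 7.02, 5.72 and 6.25. Of 13 squamous epithelium genes 3 were kept and 2 were higher, and of 15 cartilage genes 2 were kept and both were higher. Krt15 and Tmem45b passed the filter only through the lungs with fat transcripts (means of 3.11 and 2.68 in the lungs without).

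The 3 groups thus differed in which lungs were highest. The order 1586, 1603, 1592 held for 12 of 13 higher general adipocyte genes, 10 of 12 brown fat genes, 13 of 13 lipid synthesis genes and 14 of 14 fatty acid oxidation genes. It held less often for the mitochondrial lists, with 12 of 16 citric acid cycle genes and 25 of 40 respiratory chain genes. As the genes share the same lungs, these counts are descriptions. The adipocyte and brown fat counts include the rule genes Adipoq, Ucp1 and Cidea, whose mean ranked the lungs in this same order. The order 1603, 1592, 1586 held for 14 of 17 cardiac muscle genes. The reverse order of the fat genes, 1592, 1603, 1586, held for 6 of 6 airway genes. Of all 197 higher genes, 57 followed the order of the fat genes, 76 that of the airway genes and 40 that of the muscle genes. Among the lungs without fat transcripts, KO mouse 1602 was lowest for 121 of the 197.

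**Figure D3:**
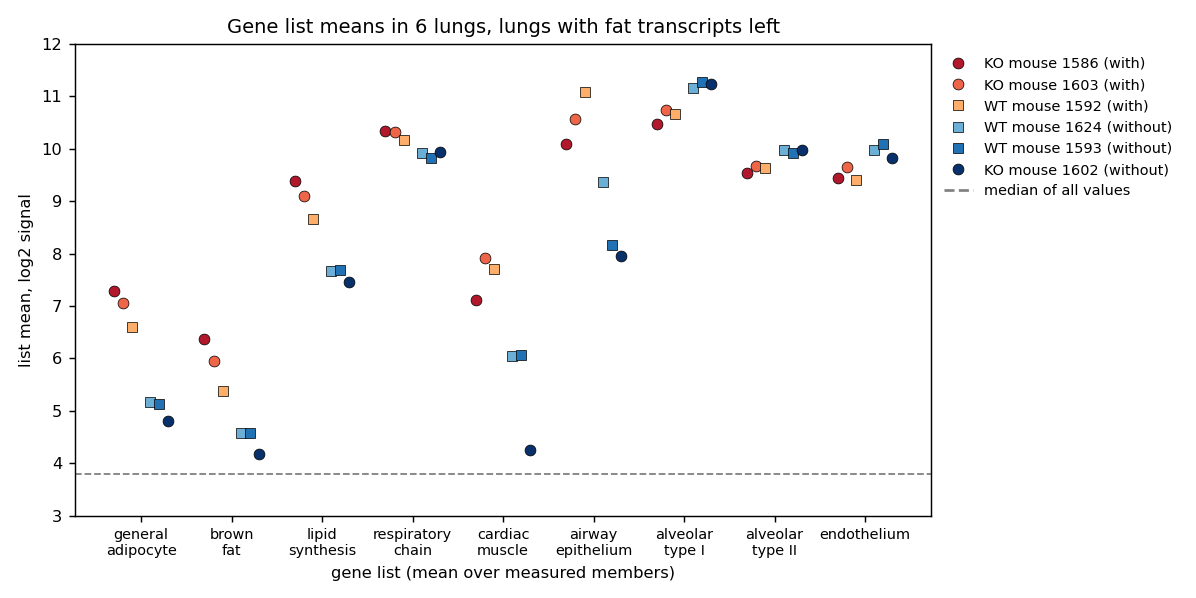
Mean log2 signal (y axis) over the measured members of 9 gene lists (x axis) in 6 lungs, 1 point per lungs, with the lungs with fat transcripts on the left of each list. Fat lists are highest in KO mouse 1586, the cardiac list in KO mouse 1603 and the airway list in WT mouse 1592, and the alveolar and endothelial lists are lower in the lungs with fat transcripts.

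Lists of the gas-exchanging lung were lower. Of 11 type I cell genes, 9 were lower and none higher, with a median of -0.50. Col4a3, a basement membrane collagen of the alveolus, had 7.37, 8.08 and 7.94, against 8.91, 9.49 and 9.25. Of 12 type II cell genes, 10 were lower, with a median of -0.32, and Etv5, a regulator of type II cells, had 7.69, 7.98 and 7.93, against 8.89, 8.66 and 8.68. Surfactant protein C (Sftpc) differed by -0.13. Of 18 endothelial genes, 11 were lower, with a median of -0.48, among them the vessel diaphragm protein Plvap at -0.95 and the receptor Tek at -0.73. All 3 kept red cell genes were lower, and Alas2, the heme enzyme of red cell precursors, had 4.75, 4.79 and 4.25, against 5.43, 6.93 and 6.33. Siglecf, a marker of alveolar macrophages and eosinophils, had 3.54, 4.06 and 4.34, against 4.95, 5.55 and 5.88. Grp, a peptide of lung neuroendocrine cells, had the lowest difference of the 36 lower genes by 1 probe set per gene, with 4.21, 3.65 and 3.16, against 5.45, 5.66 and 5.54. After it came Trim16 (-1.81) and the secreted factor Ndnf (-1.77), and Ndnf had 7.69, 8.52 and 8.59, against 9.50, 10.29 and 10.30. A second probe set of Ndnf differed by -2.42, beyond that of Grp, and one of Trim16 by -0.93. The potassium channel subunit Kcne2 differed by -1.59, Gmfb by -1.57, Ear3, a ribonuclease of the eosinophil family, by -1.41 and Ankrd29 by -1.38, and a second probe set of Gmfb, below the filter, by 0.12. Of 12 kept macrophage genes, 4 were lower and 1 higher, with a median of -0.28.

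Other neighbours of the lung were looked for with their own markers. Of 15 measured thymus genes 2 were kept, Satb1 higher (a second kept probe set differed by -0.12) and Ccl25 lower, and the list mean was 3.32 to 3.40 in the lungs with fat transcripts and 3.27 to 3.30 in the lungs without. Of 7 thyroid and parathyroid genes 1 was kept, and of 11 nerve and ganglion genes 1 was kept, with none higher or lower. Of 12 B cell and lymph node genes 4 were kept and 2 were higher, among them Cxcl13, a B cell attractant, with 6.96, 6.13 and 7.39, against 4.74, 4.33 and 5.63. Of 9 neutrophil genes 6 were kept and 4 were higher, with a median of 0.75, or 0.45 without WT mouse 1624. The neutrophil genes S100a8 and S100a9 differed by 2.29 and 2.26 and were highest in KO mouse 1586. Of 11 kept T and NK cell genes, 1 was higher and 1 lower. Mesothelial genes, of the lung's outer lining, did not separate, with none of 9 higher or lower and a median of -0.03, or 0.04 after quantile normalization. None of 8 smooth muscle genes was higher or lower in all lungs, with a median of 0.60, or 0.26 without KO mouse 1602. Of 19 kept fibroblast and matrix genes, 2 were higher and 4 lower, with a median of -0.20, or -0.03 without WT mouse 1624. Whether other tissue was taken along with the lungs was not tested.

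Most of the higher genes were not in any list: 65 of 197 were, and 3 of the 36 lower genes. Of the 197, 76 (38.6%) had every heart above the mean of the lungs with fat transcripts, against 26.6% of all kept genes, and 49 (24.9%) had every heart below 3.79, against 5.73%. Every fibroblast sample was below 3.79 for 116 of them (58.9%), against 10.5% of all kept genes. All 3 lungs without fat transcripts were below 3.79 for 27 of the 197, against 59 of 10726 kept genes. Those genes passed the filter only through the lungs with fat transcripts. Outside all lists, the genes whose levels over the 6 lungs were most like the rule mean were Coq8a (r = 0.997), a coenzyme Q factor, Pde3b (r = 0.995), the phosphodiesterase through which insulin restrains fat breakdown, Adcy6, Prkar2b and Adhfe1 (each r = 0.991), out of 10413 genes. Prkar2b, a regulatory subunit of protein kinase A abundant in fat, had 8.36, 8.12 and 7.61, against 6.16, 6.16 and 6.19. These correlations are descriptions over 6 lungs that share the arrays of the rule.

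The same split can be read within each genotype, where the 2 differences share no array. In KO lungs it is the mean of 1586 and 1603 minus 1602, and in WT lungs it is 1592 minus the mean of 1624 and 1593. Over 23213 probe sets the 2 differences correlated at r = 0.504, a description, since probe sets of an array are not independent and the same lungs set the rule. A rise of at least 1 was seen for 468 probe sets in KO and 650 in WT, and 208 were shared, which is 44.4% of the KO set and 32.0% of the WT set. A fall of at least 1 was seen for 317 in KO and 243 in WT, and 40 were shared (12.6% and 16.5%). Adipoq differed by 7.93 in KO and 6.11 in WT, Bpifa1 by 10.06 and 6.28, and Ucp1 by 6.14 and 1.06. The mesothelial list moved opposite ways, with a mean difference of -0.72 in KO and 0.78 in WT.

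**Figure D4:**
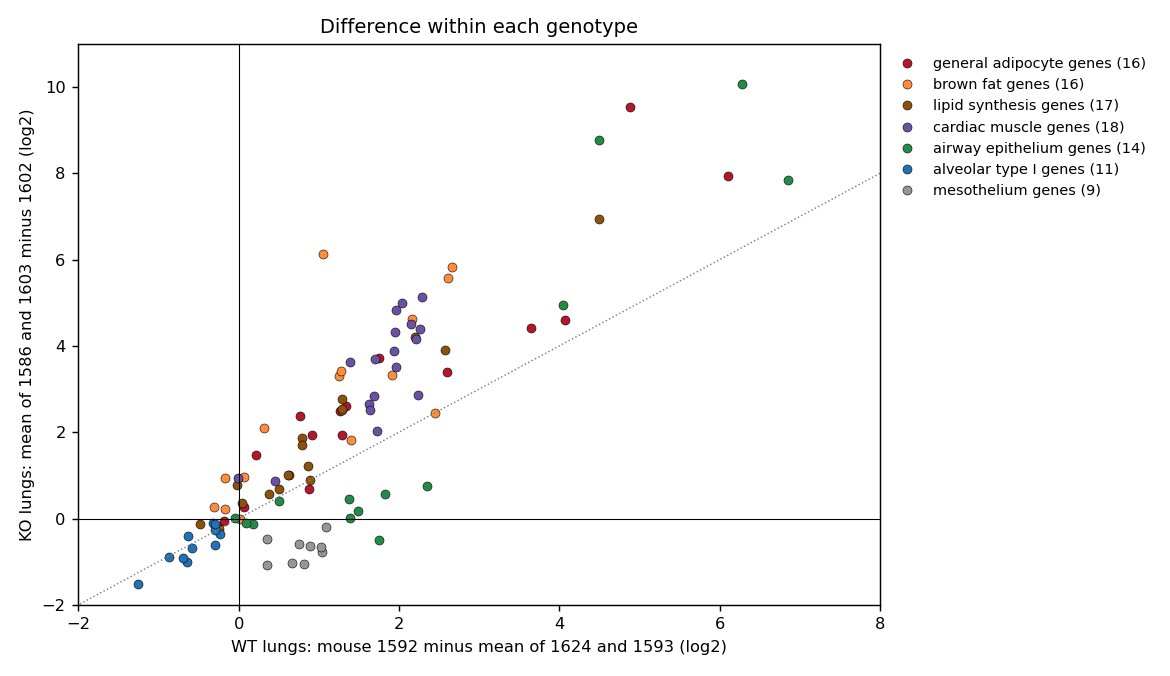
Difference within WT lungs (x axis, log2) against difference within KO lungs (y axis, log2) for the kept genes of 7 lists, 1 point per gene, with the line of equal difference dotted. Adipoq lies at 6.11 and 7.93, and mesothelial genes lie right of 0 in WT and below 0 in KO.

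The hearts of the same mice were not used by the rule. They were compared in limma with a term for the split, fitted on all 16 arrays. The p-values thus rest on a spread pooled over lungs, hearts and fibroblasts. The fit also held a mean for each genotype, so heart differences and their medians are split terms, adjusted for genotype. They are not differences between the plain means of the printed heart values. By the split term Plvap, the vessel diaphragm protein, was 1.28 higher in hearts of mice whose lungs had fat transcripts (SE 0.19, adjusted p = 0.0455, limma). Its values were 6.98, 7.51 and 8.55, against 7.15, 7.56 and 5.87. The sets overlapped, and the lowest value was in the heart of KO mouse 1602. Id2, a transcription inhibitor, was 1.10 higher and Enpp6, a choline phosphodiesterase, 1.85 higher (SE 0.16 and 0.21, adjusted p = 0.0455 and 0.0301, limma). Extl1 and the cell death gene Bik were 1.14 and 1.42 higher (SE 0.16 and 0.20, adjusted p = 0.0455 for each, limma). The sets also overlapped for Id2 and Enpp6, but not for Extl1 and Bik. For each of these genes the heart of KO mouse 1602 was again lowest, such as 6.11 for Id2 and 4.45 for Enpp6. The test called 11 of 22095 (0.0498%), of which 10 were higher and 1 lower, and 4142 had an unadjusted p under 0.05. Apart from the genes named above, the called probe sets had no single gene in the array annotation, the lower one among them. With the 6 hearts alone limma called 0, with genotype as a term or without it, and with no filter 0 (2187, 644 and 7594 at an unadjusted p under 0.05), so none of these genes was called there. The median of all kept probe sets was 0.17, with 16813 above 0. The pairing by mouse left 11 calls. Without KO mouse 1603 limma called 0 (2895 at an unadjusted p under 0.05), without KO mouse 1602 8, none of them shared, without KO mouse 1586 59, and without WT mouse 1592 it called 6993.

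In the hearts no fat gene was called. No general adipocyte gene of 16 kept and no brown fat gene of 15 was called by limma (smallest adjusted p = 0.210 and 0.552), with 1 and 0 at an unadjusted p under 0.05. Adipoq had 2.70, 4.20 and 4.72 in hearts of mice whose lungs had fat transcripts, against 2.96, 7.57 and 2.96, and the highest was in WT mouse 1593, whose lungs had 3.45. Car3 in hearts had 4.10, 7.49 and 8.21, against 5.72, 10.22 and 3.89. Atrial genes varied widely between hearts, with Myl7 at 5.66, 12.14 and 12.44, against 11.14, 13.23 and 4.08. No atrial gene of 7 kept was called (median split term 1.12 over all 8, 1 at an unadjusted p under 0.05). In the mesothelial list the split term was above 0 for 9 of 9 genes with a median of 1.33. None of these genes was called (smallest adjusted p = 0.104, 7 at an unadjusted p under 0.05).

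**Figure D5:**
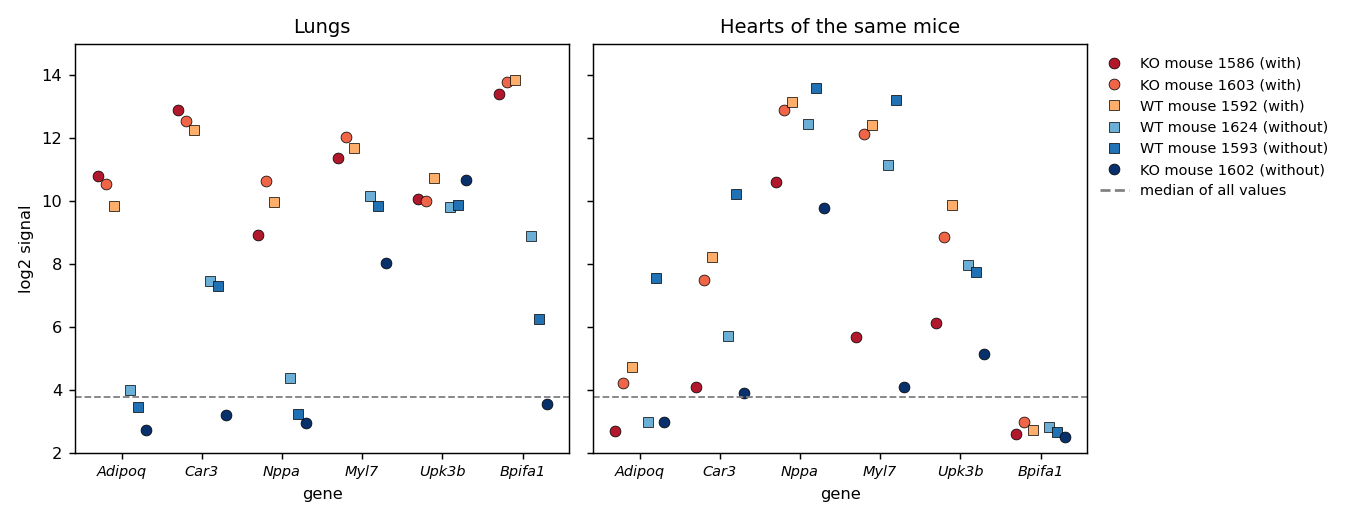
Log2 signal (y axis) of 6 genes (x axis) in lungs (left panel) and in hearts of the same mice (right panel), 1 point per mouse, colours as lungs with or without fat transcripts. Adipoq in hearts is highest in WT mouse 1593 at 7.57, and Bpifa1 is at 2.97 or less in every heart.

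The split was uneven across genotypes, with 2 KO and 1 WT lungs among those with fat transcripts and 1 KO and 2 WT among those without. Comparing KO with WT lungs in limma with no split term, 7 of 23213 probe sets were called (4 higher, 3 lower, 0.0302%). With split terms for lungs and heart, 3 were called (2 higher, 1 lower, 0.0129%), 2 of them shared. The 2 shared probe sets had no single gene in the array annotation, and differed by -1.92 and 0.97 with the term. The heart term enters the pooled spread, so the calls of the 2 fits do not differ by the lungs term alone. With mouse as a random block, limma called 7 with the term. At an unadjusted p under 0.05 there were 1617 without the term and 1273 with it. The interferon-induced gene Xaf1 had 9.25, 9.53 and 9.77 in KO lungs, against 2.81, 3.10 and 3.41 in WT lungs, a difference of 6.41 without the term and 6.55 with it (SE 0.82 and 0.92, adjusted p = 0.0173 and 0.0502, limma). Its size was nearly the same with and without the term, and only its side of the threshold moved. Fam107a, an actin-associated protein, differed by -2.07 without the term and -2.03 with it (adjusted p = 0.0173 and 0.0502, limma). Pisd-ps3 and Sfi1 were higher and Tent5b lower in KO lungs without the term (adjusted p = 0.0474 for each, limma), and not past the threshold with it (0.0801, 0.0949 and 0.0949). A330076H08Rik was called only with the term, at 1.33 (SE 0.15, adjusted p = 0.0344, limma). Leaving out 1 lungs gave 0 to 23 calls with the term, 0 without KO mouse 1586 or WT mouse 1624 and 23 without KO mouse 1603.

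List medians moved with the term. The median KO minus WT difference of general adipocyte genes was 0.71 without the term and 0.19 with it, and of brown fat genes 0.44 and 0.16. Adipoq, Ucp1 and Cidea belong to these lists and set the term in the same lungs, so a shift of the fat medians was fixed by the rule. The split was uneven across genotypes, so the term also had to shift any other gene that differed by the split. The shifts of the lists that follow are therefore no separate result. Respiratory chain genes had 0.21 and 0.08, and type I cell genes -0.25 and -0.02. Cardiac muscle genes moved further from 0, with -0.20 without the term and -1.22 with it, where 13 of 18 had an unadjusted p under 0.05, against 0 without the term. Among lungs without fat transcripts the cardiac list mean was 4.24 in KO mouse 1602, against 6.04 and 6.06 in WT mice 1624 and 1593. Among lungs with them it was 7.12 and 7.92 in KO mice 1586 and 1603, against 7.70 in WT mouse 1592. The low KO value thus came from 1 lungs. No gene of these lists was called by limma in either model.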

How the data were processed

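RNA was extracted with Trizol and hybridised as biotin-labelled cRNA to Affymetrix mouse arrays, per the labels' protocols. The table as deposited holds a log2 signal for each probe set on each array, made with Partek 6.4 per the submitters' processing notes. The method of background correction and of normalization was not given in the sources used here. All columns of the table were used. Of 45037 probe sets after 104 control entries were set aside, 28898 had 1 gene in the array annotation, 551 several and 15588 none, and 28689 were named by current gene number. Array values carry no depth, and precision is limited by the number of arrays.

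Probe sets were kept at a lungs (or heart) mean above 3.79. The split was called where the 3 and 3 values did not overlap and the means differed by at least 1. Hearts, and KO against WT lungs, were compared in R 4.3.3 by limma 3.58.1 on all 16 arrays (6 group means, split terms in lungs and heart, 8 residual and 3.81 prior degrees of freedom), with two-sided p-values adjusted by Benjamini-Hochberg over the kept probe sets and called under 0.05. The fit of KO against WT lungs without the split term left out both split terms (10 residual and 3.53 prior degrees of freedom). The script was tested on simulated data. Other normalization, filters, limits, rankings, single arrays left out and mouse as a random block were tried. Lists (27, with 416 measured genes) used the probe set with the highest lungs mean per gene. The members and lists were chosen with earlier results of these data known.

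Named were the rule genes, Car3, the tissue-form pairs, 4 members of each list with the largest difference, the 15 largest rises and 10 largest falls, all called genes up to 10 in each direction, Myo1c and the 5 genes most like the rule mean. Other list members, and the cilium genes outside the lists, were named after their values were seen. Lungs and heart of a mouse share its number in the titles and were paired as 1 animal. The deviations of a mouse's lungs and heart correlated at 0.040 to 0.169, and best with its own heart in 4 of 6 mice, with a consensus correlation of 0.0744. Nothing in the labels says more of how mice were sampled, so p-values measure the spread between these samples.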

Additional observations from a re-analysis of the deposited data

Results flagged for a closer look

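In the following, KO lungs (mice 1586 and 1603 against 1602) and WT lungs (mouse 1592 against 1624 and 1593) moved opposite ways in every sample. The difference between the genotypes was not tested, and KO rests on 1 lungs without fat transcripts and WT on 1 with them. The mesothelium list mean differed by -0.72 within KO and 0.78 within WT. Its members Msln (-0.78 and 1.04), Upk3b (-0.63 and 0.89), Gpm6a (-1.07 and 0.36) and Muc16 (-0.19 and 1.09), all genes of the pleural lining, did likewise. The fibroblast and matrix list mean differed by 0.18 within KO and -0.20 within WT, and the T and NK cell list mean by 0.19 and -0.28, with the granzyme Gzma at 0.34 and -1.32. The ribosomal protein list mean differed by -0.10 and 0.06, with Rpl32 at -0.36 and 0.05. The thyroid and parathyroid list mean differed by -0.17 and 0.12. The mitochondrial carrier Slc25a5 differed by -0.55 and 0.33.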

How the results depend on the processing

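The 303 higher and 125 lower probe sets of the split became 134 and 55 with a filter at a lungs mean of 6, 197 and 36 with 1 probe set per gene, and 105 and 1 with a least difference of 2. They were 327 and 136 with quantile normalization, 324 and 126 with no filter, 308 and 108 by the mean of the within-genotype differences and 303 and 125 with lungs ranked by the other general adipocyte genes. This last ranking picked the same lungs for each set, so its counts could not differ. Leaving out 1 lungs gave 306 to 437 higher and 72 to 244 lower, lowest for the lower ones without KO mouse 1586 and highest without KO mouse 1603. Without 1 lungs, 1 set has 2 samples. In hearts, limma called 0 with no filter, 0 with the 6 hearts alone and genotype as a term and 0 without that term (7594, 2187 and 644 at an unadjusted p under 0.05). Leaving out 1 heart gave 0 to 6993, with 0 without KO mouse 1603 (2895 at an unadjusted p under 0.05), 59 without KO mouse 1586, 6993 without WT mouse 1592 and 6 without WT mouse 1593. For KO against WT lungs, the 3 calls became 9 with quantile normalization, 7 without the split term and 25 with the rule mean as a number. Leaving out 1 lungs gave 0 to 23, with 0 without KO mouse 1586 or WT mouse 1624 (796 and 1201 at an unadjusted p under 0.05), 5 without KO mouse 1602 or WT mouse 1593, 19 without WT mouse 1592 and 23 without KO mouse 1603. The causes were not tested.

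With mouse as a replicate block, limma called 11 in hearts, as without it, and 7 for KO against WT lungs, 3 of them shared with the fit without the block. The replicate block without the split term, chosen after seeing the data, called 7. Of single genes and list values, 1303 alternatives kept direction and side of the threshold, 92 lost the call, 21 gained it and 2 moved. Of these none changed direction past a call, but with 1 lungs left out the list median crossed 0 for T and NK cells (-0.06 to 0.12, 0.05 over all 6 lungs), thyroid (-0.05 to 0.15) and mesothelium (-0.23 to 0.29), the last also with quantile normalization (0.04 against -0.03).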
